A study of Homo sapiens with 6 samples.

Results

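The change shared by both PARP1 knockout (KO) lines was read from 6 poly(A) RNA libraries of MDA-MB-231, a human triple-negative breast cancer line of mesenchymal type. The shEZH2 line is MDA-MB-231 with PARP1 knocked out and a short hairpin RNA (shRNA) against EZH2 (2 libraries). The shSUZ12 line is MDA-MB-231 with PARP1 knocked out and an shRNA against SUZ12 (2 libraries). Control is MDA-MB-231 wild type for PARP1 with a non-targeting shRNA (2 libraries). All cells were at passage 5 to 10 and grew for 2 days in medium with serum before RNA was taken. The labels do not say whether a knockout line is 1 clone, whether both lines came from the same knockout, or when the shRNAs were introduced. No library lacks PARP1 alone, EZH2 alone or SUZ12 alone. A change shared by all 4 knockout libraries therefore goes with the loss of PARP1 together with an shRNA against either Polycomb subunit, and these cannot be told apart here.

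The genes described are those in which all 4 knockout libraries lay above, or all 4 below, both control libraries. By this rule 3980 of 14192 tested genes (28%) qualified, 1827 above (12.9%) and 2153 below (15.2%), out of 29744 genes in the deposited counts. The side alone is a weak criterion, so the text turns on genes that also passed edgeR's quasi-likelihood test of the mean of both lines against control, at a Benjamini-Hochberg adjusted p under 0.05. That test called 519 genes (3.66%), 213 higher (1.5%) and 306 lower (2.16%). Of these, 212 had all 4 knockout libraries above both controls (1.49% of tested genes) and are called common rises. Another 300 had all 4 below (2.11%) and are called common falls, which makes 512 common changes (3.61%). The other 7 calls had a knockout library on the wrong side of a control.

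PARP1 is the main enzyme that adds poly(ADP-ribose) chains to itself and to chromatin proteins at DNA breaks, and it also sits at promoters as a transcription cofactor. EZH2 is the catalytic subunit of Polycomb repressive complex 2 (PRC2), SUZ12 and EED are its core partners, and the complex methylates lysine 27 of histone H3 at silent developmental and lineage genes. Both proteins are studied in triple-negative breast cancer, PARP1 as a drug target and EZH2 as a repressor that is often abundant there.

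Gene counts per library were 20135270 to 22782742, and 3 counts correspond to 0.134 to 0.153 CPM (reads per 1e+06 effective gene counts), the level unit used throughout, scaled by the trimmed mean of M values and not divided by gene length. The shEZH2 pair was the least alike, with 15.3% of tested genes over 2-fold apart within it, against 1.61% within the shSUZ12 pair and 3.24% within the control pair. How many genes were called depended on the libraries kept. Leaving out shEZH2 replicate 1 or 2 gave 6357 and 3826 calls, leaving out shSUZ12 replicate 1 or 2 gave 87 and 96, and leaving out control replicate 1 or 2 gave 18 and 27. Among all common changes, nearly all stayed called without an shEZH2 library, and most were lost without an shSUZ12 or a control library. The leave-one-out counts given below for single groups of genes are to be read beside this pattern. With the 4 knockout libraries fitted as 1 group, so that the difference between lines counts as spread, 124 genes were called. Markers of the line itself were abundant in all 6 libraries (VIM at 2940.6 to 5144 CPM, CD44 at 368 to 905 CPM), and ESR1 was at 0. Of others listed as low or absent, ERBB2 had 56 to 75.8 CPM and GATA3 had 10.0 to 12.8 CPM. Of markers of cells that a pure culture should lack, CD3E and CDH5 were at 0 and PTPRC did not exceed 0.332 CPM. Of the fibroblast markers, PDGFRA did not exceed 0.102 CPM, while COL1A1 had 10.0 to 15.1 CPM over the 6 libraries, knockout and control alike. The monocyte marker CD14 had 1.83 to 4.49 CPM in the knockout lines and 0.665 to 0.765 CPM in control, and the endothelial PECAM1 had 4.47 to 7.87 CPM in the knockout lines and 1.85 to 2.99 CPM in control. In bulk RNA, fewer cells of a type and less RNA per cell cannot be told apart.

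**Figure D1:**
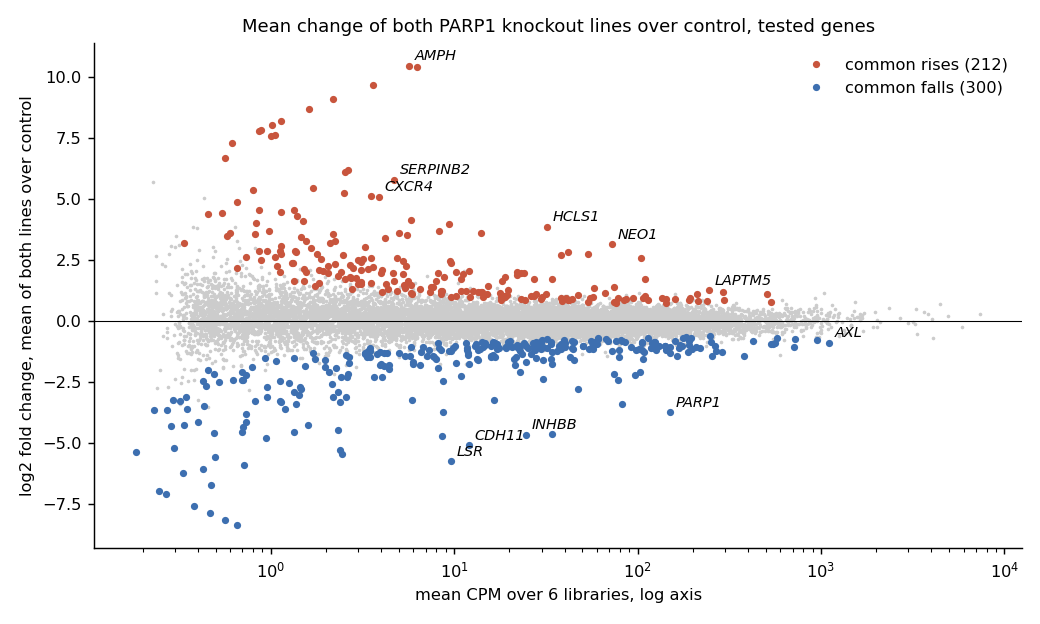
Each point is a tested gene, by its mean CPM over 6 libraries (log axis) and its log2 fold change, mean of both knockout lines over control, from edgeR. Coloured points are the 212 common rises and the 300 common falls; the highest points had 0 counts in both controls, where the fitted value is not a bound.

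PARP1 itself checks the labels. PARP1 had 33.6 and 28.6 CPM (shEZH2) and 28.6 and 26.5 CPM (shSUZ12), against 425 and 360.5 CPM in control. All 4 knockout libraries lay far below both controls, 10.7-fold between the closest knockout and control library (log2 fold change -3.75 ± 0.15 (SE), edgeR adjusted p = 0.000124). EZH2 had 53.1 and 63.4 CPM (shEZH2) and 201 and 221 CPM (shSUZ12), against 199 and 188 CPM in control, so only the line with the hairpin against EZH2 lay below control (log2 fold change -1.73 in the shEZH2 line and 0.13 in the shSUZ12 line). The mean of both lines passed the test for EZH2 all the same (log2 fold change -0.80 ± 0.15 (SE), edgeR adjusted p = 0.0306), which is one of the 7 calls outside the common set. SUZ12 had 130.1 and 53.1 CPM (shEZH2) and 76.04 and 70.3 CPM (shSUZ12), against 134 and 133 CPM in control. All 4 knockout libraries were below both controls, but shEZH2 replicate 1 was level with control and the mean did not pass the test (log2 fold change -0.71 ± 0.31 (SE), edgeR adjusted p = 0.279). The shSUZ12 line alone did not pass against control either (log2 fold change -0.87, edgeR adjusted p = 0.377). The shEZH2 line had -0.54, its replicate 2 was the lowest library, and SUZ12 was not called between the lines (edgeR adjusted p = 0.607). The call of PARP1 held without any 1 of the 6 libraries, while that of EZH2 was lost without either control or either shSUZ12 library.

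Among the common rises, the median gene was 1.91 higher on the log2 scale, and 175 of 212 rose at least 2-fold, 96 at least 4-fold and 29 at least 16-fold, with the 13 genes that had 0 counts in both controls set at their lower bound. In 106 of the 212 the closest knockout and control library were at least 2-fold apart. Their median log2 fold change was 1.98 for the shEZH2 line and 1.64 for the shSUZ12 line, both set against the same 2 controls. The lines were within 1.5-fold of each other for 100 of the 212 genes and over 2-fold apart for 67, and the test between lines called 21 of them, against 216 of all tested genes (1.52%). Among the common falls, the median gene was lower by a log2 fold change of -1.31, 77% of the 300 fell at least 2-fold, 87 at least 4-fold and 31 at least 16-fold. Their median was -1.44 for shEZH2 and -1.26 for shSUZ12, with 134 of 300 within 1.5-fold between lines, 85 over 2-fold apart and 25 called between lines. In the shEZH2 line alone against control 188 of the rises and 229 of the falls were called (957 of all tested genes, 6.74%). In the shSUZ12 line alone 79 and 106 were called (228 of all tested genes, 1.61%), and 10 rises and 34 falls were called in neither line alone. The rises were low in abundance, with a median of 5.51 CPM over 6 libraries, against 16.5 CPM for the falls and 25.5 CPM for all tested genes. At the edge of the rule, AIF1L just qualified with 22.2 and 21.3 CPM (shEZH2) and 3.71 and 3.48 CPM (shSUZ12), against 24.9 and 22.3 CPM in control, and CNN3 just failed with 186 and 174 CPM (shEZH2) and 462 and 374 CPM (shSUZ12), against 455 and 459 CPM in control.

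Some of the widest common rises were genes with next to no RNA in control. AMPH, which encodes amphiphysin, a membrane-bending protein of nerve terminals, had 9.83 and 9.81 CPM (shEZH2) and 7.01 and 7.34 CPM (shSUZ12), against 0 and 0 CPM in control. It was detected in all 4 knockout libraries and in neither control, at least 122-fold higher than 3 counts over both controls would give (edgeR adjusted p = 0.000944; GRCh38 chr7:38383704-38631567, minus strand). FOXR2, a forkhead transcription factor gene on the X chromosome, had 17.5 and 10.5 CPM (shEZH2) and 5.14 and 4.39 CPM (shSUZ12), against 0 and 0 CPM in control. Both lines again lay far above control, the shEZH2 libraries highest, at least 134-fold over both controls (adjusted p = 0.00238). LDB2, a LIM-domain binding cofactor, had 9.64 and 5.92 CPM (shEZH2) and 2.46 and 3.72 CPM (shSUZ12), against 0 and 0 CPM in control, at least 77.4-fold higher. CXCR4, the receptor of the chemokine CXCL12, was the most even of these rises. It had 5.45 and 5.87 CPM (shEZH2) and 5.9 and 5.72 CPM (shSUZ12), against 0.225 and 0.095 CPM in control, and the 4 knockout libraries lay within a narrow band 17.3-fold above the nearer control (log2 fold change 5.10 ± 0.39 (SE), edgeR adjusted p = 0.00146; chr2:136114350-136118160, minus strand). SERPINB2, the plasminogen activator inhibitor PAI-2, had 4.77 and 5.41 CPM (shEZH2) and 8.22 and 9.63 CPM (shSUZ12), against 0.135 and 0.095 CPM in control. Here the shSUZ12 libraries were the higher ones, and no knockout library came near control (log2 fold change 5.80 ± 0.38 (SE), edgeR adjusted p = 0.000944; chr18:63871692-63903890, plus strand).

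Other wide rises started from a measurable control level. HCLS1, a cortactin relative known from blood cells, had 57.8 and 59.6 CPM (shEZH2) and 34.4 and 35.1 CPM (shSUZ12), against 3.33 and 2.85 CPM in control (log2 fold change 3.87 ± 0.21 (SE), edgeR adjusted p = 0.000293), both lines standing clear of control. NEO1, which encodes neogenin, a receptor of netrins and repulsive guidance molecules, had 145 and 85.2 CPM (shEZH2) and 94.4 and 88.04 CPM (shSUZ12), against 10.8 and 12.1 CPM in control (log2 fold change 3.16 ± 0.27 (SE), edgeR adjusted p = 0.00237). KYNU, kynureninase of tryptophan breakdown, had 10.7 and 8.48 CPM (shEZH2) and 4.96 and 4.58 CPM (shSUZ12), against 0.63 and 0.475 CPM in control, with the shEZH2 libraries above the shSUZ12 libraries and both above control. PIK3CG, the gamma catalytic subunit of PI3-kinase, had 12 and 4.85 CPM (shEZH2) and 8.89 and 8.34 CPM (shSUZ12), against 0.675 and 0.285 CPM in control; shEZH2 replicate 2 was its lowest knockout library. PLCH2, a phospholipase C, rose more in the shEZH2 line (log2 fold change 4.53) than in the shSUZ12 line (2.87), and the test between lines called it (edgeR adjusted p = 0.0371). KLHL13, a substrate adaptor of a cullin ubiquitin ligase, and RASEF, a Rab-like GTPase, had mean log2 fold changes of 5.14 and 3.98. Of the 12 calls for the widest rises, 12 and 12 stayed called on leaving out shEZH2 replicate 1 or 2, 12 and 12 on leaving out shSUZ12 replicate 1 or 2, and 5 and 5 on leaving out control replicate 1 or 2. NEO1 and LDB2 lie in stretches of chromosomes 15 and 4 that were shifted as a whole, described with the chromosomes.

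LSR, the lipolysis-stimulated receptor that organises tricellular junctions of epithelia, showed the widest common fall. It had 0.241 and 0.409 CPM (shEZH2) and 0.67 and 0.906 CPM (shSUZ12), against 26.5 and 28.9 CPM in control, so it was nearly silent in all 4 knockout libraries, 26.6-fold below the nearer control at the closest (log2 fold change -5.76 ± 0.24 (SE), edgeR adjusted p = 0.000124; chr19:35248330-35267964, plus strand). CDH11, a cadherin of mesenchymal cells, had 1.01 and 0.613 CPM (shEZH2) and 1.3 and 1.05 CPM (shSUZ12), against 29.3 and 38.6 CPM in control (log2 fold change -5.11 ± 0.25 (SE), edgeR adjusted p = 0.000288; chr16:64943753-65126112, minus strand). INHBB, the beta-B chain of activin B, had 5.11 and 5.57 CPM (shEZH2) and 1.74 and 0.858 CPM (shSUZ12), against 70.6 and 64.9 CPM in control. Both lines were far below control, the shSUZ12 line further (log2 fold change -4.68 ± 0.24 (SE), edgeR adjusted p = 0.000293), and the lines differed from each other by -2.02 on the log2 scale, shSUZ12 minus shEZH2 (adjusted p = 0.0346). NUP210, a membrane protein of the nuclear pore, fell further in the shEZH2 line. It had 0.578 and 1.99 CPM (shEZH2) and 10.5 and 10.2 CPM (shSUZ12), against 89.1 and 91.6 CPM in control. CYP24A1, the enzyme that inactivates vitamin D, had 0.386 and 0.102 CPM (shEZH2) and 0.402 and 0.238 CPM (shSUZ12), against 7.79 and 4.99 CPM in control (log2 fold change -4.47 ± 0.42 (SE), edgeR adjusted p = 0.00339). AGMAT, agmatinase of polyamine metabolism, had 0.386 and 0.102 CPM (shEZH2) and 0.134 and 0.0477 CPM (shSUZ12), against 8.01 and 5.94 CPM in control. The remaining wide falls were LHFPL4, a membrane partner of GABA receptors (log2 fold change -5.30), the adhesion receptor GPR110 (-3.75), the placental alkaline phosphatase ALPP (-3.23, whose reads near-identical copies may share), the histone deacetylase HDAC11 (-2.93), and the epithelial splicing factor ESRP2 (-3.12). Of the calls for the 12 widest falls, PARP1 included, 12 and 12 stayed called on leaving out shEZH2 replicate 1 or 2, 12 and 12 on leaving out shSUZ12 replicate 1 or 2, and 6 and 8 on leaving out control replicate 1 or 2.

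The starts of 5 of these genes are shown because they span the sequence classes found among the common changes, CpG-rich starts and a CpG-poor one. Each run is 300 bases of RefSeq sequence (assembly GRCh38.p14), 250 before to 50 after the start, 5′ to 3′ on the gene's strand, with CG dinucleotides in capitals.
AMPH: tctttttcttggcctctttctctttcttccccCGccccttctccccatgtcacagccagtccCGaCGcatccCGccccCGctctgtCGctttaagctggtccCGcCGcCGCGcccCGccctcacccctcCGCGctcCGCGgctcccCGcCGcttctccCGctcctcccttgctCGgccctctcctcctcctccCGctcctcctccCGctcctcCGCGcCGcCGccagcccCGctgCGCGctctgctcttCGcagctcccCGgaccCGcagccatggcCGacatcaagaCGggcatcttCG
CXCR4: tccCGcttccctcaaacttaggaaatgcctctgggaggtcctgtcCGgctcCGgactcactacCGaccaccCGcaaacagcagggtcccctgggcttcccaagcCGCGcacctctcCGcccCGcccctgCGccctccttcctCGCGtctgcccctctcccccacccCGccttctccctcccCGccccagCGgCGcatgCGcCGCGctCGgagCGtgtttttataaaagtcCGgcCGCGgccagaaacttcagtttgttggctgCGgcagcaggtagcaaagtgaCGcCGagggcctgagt
SERPINB2: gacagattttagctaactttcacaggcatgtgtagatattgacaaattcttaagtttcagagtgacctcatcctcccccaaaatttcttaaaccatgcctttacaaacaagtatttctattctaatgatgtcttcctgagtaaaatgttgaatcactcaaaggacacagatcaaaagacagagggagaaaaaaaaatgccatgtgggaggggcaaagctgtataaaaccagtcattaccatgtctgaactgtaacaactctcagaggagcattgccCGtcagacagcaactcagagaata
LSR: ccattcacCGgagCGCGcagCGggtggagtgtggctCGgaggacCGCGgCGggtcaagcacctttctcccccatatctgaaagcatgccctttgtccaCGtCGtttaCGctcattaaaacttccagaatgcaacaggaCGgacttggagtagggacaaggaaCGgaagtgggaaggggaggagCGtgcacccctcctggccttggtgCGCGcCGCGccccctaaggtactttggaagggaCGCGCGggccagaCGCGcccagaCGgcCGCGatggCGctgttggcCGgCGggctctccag
INHBB: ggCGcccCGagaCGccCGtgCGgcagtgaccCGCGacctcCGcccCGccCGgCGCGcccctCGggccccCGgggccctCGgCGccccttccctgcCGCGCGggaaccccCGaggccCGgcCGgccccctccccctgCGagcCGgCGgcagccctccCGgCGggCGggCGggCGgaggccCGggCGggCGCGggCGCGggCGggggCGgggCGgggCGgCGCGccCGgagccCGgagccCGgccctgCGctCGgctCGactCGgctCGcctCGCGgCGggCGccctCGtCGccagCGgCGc
The windows are chr7:38631324-38631623 (minus strand) for AMPH, chr2:136118100-136118399 (minus) for CXCR4, chr18:63887455-63887754 (plus) for SERPINB2, chr19:35248752-35249051 (plus) for LSR and chr2:120345886-120346185 (plus) for INHBB. AMPH holds 34 CG dinucleotides, CXCR4 27, LSR 29 and INHBB 58, while SERPINB2 holds 1. The windows were picked to span both classes, so they do not show how often either class occurs among the common changes. The letters TATAAA, searched on both strands, occur in the windows of CXCR4 and SERPINB2 and in 5.69% of the 10806 windows of tested genes. The letters TGANTCA, a looser form of the AP-1 consensus with any base at N, occur in the SERPINB2 window as TGAATCA. They occur in 4.7% of windows of tested genes. GGGCGG, the GC box, occurs in the windows of AMPH, CXCR4 and INHBB and in 69.8% of those of tested genes. A comparison of base composition and of these and other motifs between all common rises or falls and other genes was void, because only 74.5% of the rises, 72.3% of the falls and 76.1% of all tested genes had a window in the table.

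**Figure D2:**
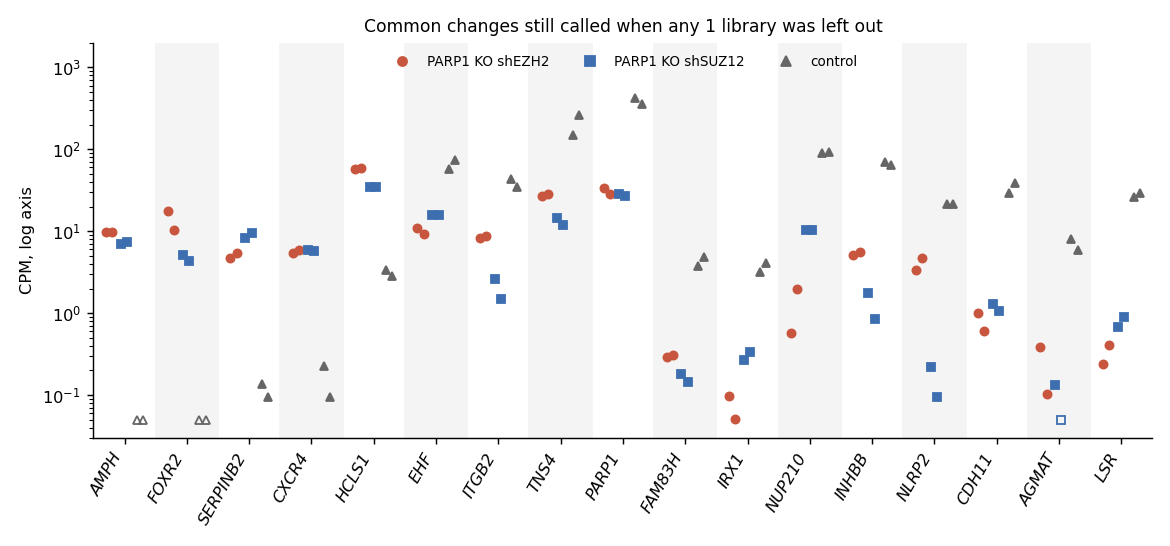
CPM (log axis) in each library for the 17 genes of the common set that were called whichever 1 of the 6 libraries was left out; circles and squares are the knockout lines, triangles control, and open symbols at the bottom stand for values under 0.05 CPM. The 5 rises are at the left and the 12 falls at the right, and the rule that chose them keeps knockout and control libraries apart in each gene.

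Leaving out each of the 6 libraries in turn, 17 genes of the common set were called every time, a group chosen after values were seen. AMPH, FOXR2, SERPINB2, CXCR4 and HCLS1 are the rises among them. The falls are PARP1, LSR, CDH11, INHBB, NUP210, AGMAT, ITGB2, EHF, IRX1, NLRP2, TNS4 and FAM83H. TNS4, a tensin of focal adhesions, had 26.6 and 28.4 CPM (shEZH2) and 14.3 and 11.9 CPM (shSUZ12), against 149 and 261 CPM in control (log2 fold change -3.43 ± 0.23 (SE), edgeR adjusted p = 0.00108). NLRP2, an NLR family protein, had 3.33 and 4.7 CPM (shEZH2) and 0.223 and 0.0953 CPM (shSUZ12), against 21.6 and 21.5 CPM in control, so the shSUZ12 line lost nearly all of it and the shEZH2 line kept more (adjusted p = 0.00917 between lines). EHF, an ETS factor of epithelia, had 10.8 and 9.24 CPM (shEZH2) and 15.6 and 15.8 CPM (shSUZ12), against 56.9 and 74.7 CPM in control. IRX1 had 0.0964 and 0.0511 CPM (shEZH2) and 0.268 and 0.334 CPM (shSUZ12), against 3.15 and 4.13 CPM in control, and its neighbour in the same family, IRX2, was at 0 in all 4 knockout libraries.

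Genes of epithelial junctions, keratins and the epithelial surface stood mostly lower in both lines. Of 44 tested members of this list 8 fell in common and 0 rose, 22 had all 4 knockout libraries below both controls against 2 above, and the list's median log2 fold change was -0.48 (all tested genes, -0.00044). Of all tested genes 2.11% fell in common and 1.49% rose, and 15.2% lay below in all 4 libraries and 12.9% above. Within each line the median was -0.49 (shEZH2) and -0.47 (shSUZ12). Besides LSR and ESRP2, the claudin CLDN1 of tight junctions had 0.53 and 0.664 CPM (shEZH2) and 0.447 and 0.334 CPM (shSUZ12), against 4.05 and 2.75 CPM in control (log2 fold change -2.80 ± 0.32 (SE), edgeR adjusted p = 0.0075). The adhesion molecule EPCAM had 5.2 and 7.15 CPM (shEZH2) and 7.28 and 6.05 CPM (shSUZ12), against 16.4 and 14.2 CPM in control, lower in every knockout library. Among the keratins, KRT7 (-0.95), KRT80 (-0.62) and KRT81 (-1.16) fell. The epithelial transcription factor EHF fell by a log2 fold change of -2.39 ± 0.18 (SE). Mesenchymal genes did not move the other way as a group. Of 28 tested members, 1 rose in common, SNAI1 (log2 fold change 1.54 ± 0.30 (SE), edgeR adjusted p = 0.0349), and 3 fell, CDH11, the melanoma adhesion molecule MCAM (-2.79) and the receptor kinase AXL (-0.89), with a list median of -0.15. SNAI1, a repressor of epithelial genes, had 6.51 and 6.13 CPM (shEZH2) and 1.38 and 2.05 CPM (shSUZ12), against 1.17 and 1.09 CPM in control; the rise was larger in the shEZH2 line (adjusted p = 0.036 between lines). CLDN1 lies on the lower segment of chromosome 3 (median -0.53), and its part in the CLDN1 value was not tested. For the 8 epithelial calls, 8 and 8 stayed called on leaving out shEZH2 replicate 1 or 2, 4 and 4 on leaving out shSUZ12 replicate 1 or 2, and 2 and 2 on leaving out control replicate 1 or 2.

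Several genes best known from blood cells were common rises. Of 21 tested members 7 rose in common and 1 fell (all tested genes, 1.49% and 2.11%), and the list's median log2 fold change was 0.31. In all 4 knockout libraries 9 of the 21 lay above both controls and 2 below (all tested genes, 12.9% and 15.2%). In the mean of both lines 14 were higher and 7 lower, called or not. CXCR4, HCLS1 and PIK3CG are described with the widest rises. IKZF3, the lymphoid zinc-finger factor Aiolos, had 18.3 and 7.92 CPM (shEZH2) and 2.14 and 3.81 CPM (shSUZ12), against 0.63 and 0.427 CPM in control (log2 fold change 3.54 ± 0.53 (SE), edgeR adjusted p = 0.0177). LCP1, the actin bundler L-plastin, had 17.01 and 12.1 CPM (shEZH2) and 41.01 and 30.9 CPM (shSUZ12), against 7.47 and 5.56 CPM in control, and LAPTM5, a lysosomal membrane protein, had 335 and 374 CPM (shEZH2) and 263 and 255 CPM (shSUZ12), against 133 and 121 CPM in control. GMFG, an actin regulator, rose more in the shEZH2 line (log2 fold change 4.99) than in the shSUZ12 line (1.04; adjusted p = 0.0154 between lines). ITGB2, the beta-2 integrin chain of leukocytes, went the other way, with 8.29 and 8.68 CPM (shEZH2) and 2.59 and 1.48 CPM (shSUZ12), against 42.98 and 35.1 CPM in control (log2 fold change -3.23 ± 0.23 (SE), edgeR adjusted p = 0.00119). Of leukocyte markers, PTPRC and CD3E were at or near 0 in the same libraries, while CD14 had 2.02 and 4.49 CPM (shEZH2) and 1.83 and 2.1 CPM (shSUZ12), against 0.765 and 0.665 CPM in control, above both controls in all 4 knockout libraries, and its part in the blood-cell values was not tested. Of the blood-cell calls, 8 and 8 stayed called on leaving out shEZH2 replicate 1 or 2, 5 and 6 on leaving out shSUZ12 replicate 1 or 2, and 3 and 3 on leaving out control replicate 1 or 2.

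**Figure D3:**
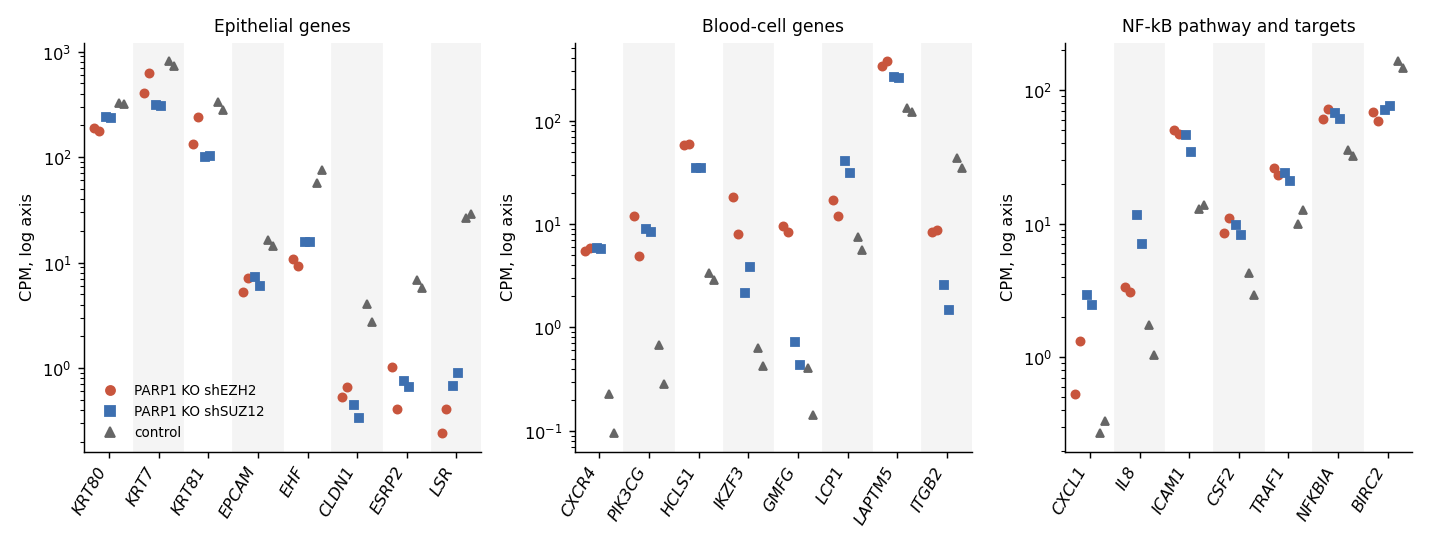
CPM (log axis) in each library for the members of 3 gene lists that changed in common, ordered from rises to falls. In the epithelial panel all 8 members were lower in the knockout lines, in the blood-cell panel 7 of 8 were higher, and in the NF-kB panel 6 of 7 were higher.

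Several inflammatory genes under NF-kB, the transcription factor family released by loss of its inhibitors, were common rises. Of 31 tested pathway and target genes 6 rose in common and 1 fell, 14 had all 4 knockout libraries above both controls against 3 below, with a median log2 fold change of 0.54. Of all tested genes 1.49% rose in common and 2.11% fell, and 12.9% lay above in all 4 libraries and 15.2% below. ICAM1, an adhesion molecule for leukocytes, had 50.2 and 46.9 CPM (shEZH2) and 46.5 and 34.3 CPM (shSUZ12), against 12.96 and 13.9 CPM in control (log2 fold change 1.72 ± 0.20 (SE), edgeR adjusted p = 0.00801). NFKBIA, the inhibitor that NF-kB itself induces, had 61.1 and 72.6 CPM (shEZH2) and 67.3 and 60.6 CPM (shSUZ12), against 35.8 and 32.4 CPM in control, and TRAF1, a signalling adaptor, had 25.9 and 23.3 CPM (shEZH2) and 23.9 and 20.9 CPM (shSUZ12), against 9.9 and 12.6 CPM in control. These 3 genes were about as high in one knockout line as in the other. The neutrophil chemokines were higher in the shSUZ12 line than in the shEZH2 line, though the test between lines did not call them: IL8 had 3.37 and 3.06 CPM (shEZH2) and 11.6 and 7.05 CPM (shSUZ12), against 1.76 and 1.04 CPM in control and CXCL1 had 0.53 and 1.33 CPM (shEZH2) and 2.9 and 2.48 CPM (shSUZ12), against 0.27 and 0.332 CPM in control. CSF2, the growth factor GM-CSF, had a log2 fold change of 1.37. Of 22 chemokines, colony-stimulating factors and interleukins, 4 rose in common and 0 fell (median 0.42), the fourth being SPP1, osteopontin. SPP1 had 3.33 and 6.23 CPM (shEZH2) and 3.31 and 2.81 CPM (shSUZ12), against 0.09 and 0 CPM in control, 83.8-fold higher by counts with a 95% counting interval of 23.0 to 695, since control held 2 counts. BIRC2, the apoptosis inhibitor cIAP1 that restrains the non-canonical pathway, fell (log2 fold change -1.18 ± 0.15 (SE), edgeR adjusted p = 0.0102); it lies on the lower segment of chromosome 11 (median -0.57), whose part in its value was not tested. Of the 8 calls in both lists, 8 and 8 stayed called on leaving out shEZH2 replicate 1 or 2, 2 and 2 on leaving out shSUZ12 replicate 1 or 2, and 0 and 0 on leaving out control replicate 1 or 2.

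TGF-beta and BMP genes moved in both directions. Of 47 tested members 3 rose in common and 6 fell (all tested genes, 1.49% and 2.11%), with a median of -0.0034. In all 4 knockout libraries 5 of the 47 lay above both controls and 11 below (all tested genes, 12.9% and 15.2%). Ligands fell in part: INHBB as given with the widest falls, TGFB2 with 48.9 and 34.3 CPM (shEZH2) and 64.4 and 51.1 CPM (shSUZ12), against 149 and 128 CPM in control, and BMP4 with 86.5 and 129 CPM (shEZH2) and 142 and 168 CPM (shSUZ12), against 256 and 267 CPM in control. BMP2, a related ligand, rose and had 5.16 and 3.17 CPM (shEZH2) and 3.08 and 3 CPM (shSUZ12), against 1.08 and 0.997 CPM in control. The activin-binding inhibitors FST (log2 fold change -1.50) and FSTL3 (-1.20) fell, as did SMURF2 (-0.87), a ubiquitin ligase of the pathway. GDF15, a stress-induced family member, rose (1.18 ± 0.25 SE). SMAD6, the inhibitory SMAD of BMP signalling, rose in the mean (log2 fold change 1.30 ± 0.22 (SE), edgeR adjusted p = 0.0261) but mainly in the shEZH2 line (2.12, against 0.47 in the shSUZ12 line, adjusted p = 0.0309 between lines), and it lies on the higher segment of chromosome 15. Among the pathway's calls, 9 and 9 stayed called on leaving out shEZH2 replicate 1 or 2, 2 and 1 on leaving out shSUZ12 replicate 1 or 2, and 1 and 1 on leaving out control replicate 1 or 2.

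Matrix and adhesion genes were split. Of all tested genes 1.49% rose in common and 2.11% fell, the shares to set beside the counts of the lists here. Of 58 tested collagens and matrix proteins 3 rose in common and 4 fell, with 4 called higher in all. COL7A1, the collagen of anchoring fibrils, had 317 and 360.0 CPM (shEZH2) and 323 and 429.9 CPM (shSUZ12), against 122 and 195 CPM in control, and SPOCK1, a testican proteoglycan, had 2.99 and 2.15 CPM (shEZH2) and 12.2 and 10.3 CPM (shSUZ12), against 0.675 and 1.09 CPM in control. Both lay above control in all 4 libraries, SPOCK1 more so in the shSUZ12 line (adjusted p = 0.032 between lines). MATN2, matrilin-2, had 4.72 and 4.85 CPM (shEZH2) and 5 and 4.62 CPM (shSUZ12), against 25.1 and 21.4 CPM in control and fell almost equally in both lines (log2 fold change -2.27 ± 0.18 (SE), edgeR adjusted p = 0.00149). EFEMP1, fibulin-3, and LOXL4, a lysyl oxidase, fell (-1.59 and -1.38). COL1A2 was low everywhere, with 0.0964 and 0.0511 CPM (shEZH2) and 0.134 and 0.0953 CPM (shSUZ12), against 1.13 and 0.57 CPM in control. Of 49 proteases, serpins and inhibitors 2 rose in common, SERPINB2 and SERPINA1 (log2 fold change 2.45 ± 0.27 (SE), edgeR adjusted p = 0.00743), and 3 fell, the secreted metalloproteases ADAMTS15 (-1.15) and ADAMTS16 (-1.09) and the granzyme inhibitor SERPINB9 (-1.37). Of 31 integrins and cadherins 3 fell in common and 0 rose (median -0.25): ITGA3, a laminin-receptor chain with 722 and 644 CPM (shEZH2) and 855 and 842 CPM (shSUZ12), against 1437 and 1195 CPM in control, ITGB2 and CDH11. Of the 19 calls over the matrix, protease, integrin and mesenchymal lists, 18 and 18 stayed called on leaving out shEZH2 replicate 1 or 2, 7 and 9 on leaving out shSUZ12 replicate 1 or 2, and 3 and 5 on leaving out control replicate 1 or 2.

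Growth-factor and receptor kinase genes were lower more often than higher. Of 50 tested members 1 rose in common and 5 fell (all tested genes, 1.49% and 2.11%), and the median was -0.21. Among them 16 had all 4 knockout libraries below both controls against 4 above (all tested genes, 15.2% and 12.9%). AXL, a receptor kinase abundant in MDA-MB-231, had 855 and 629.6 CPM (shEZH2) and 984 and 1014 CPM (shSUZ12), against 1744 and 1442 CPM in control (log2 fold change -0.89 ± 0.18 (SE), edgeR adjusted p = 0.039). MUSK, a receptor kinase of the neuromuscular junction, had 0.434 and 0.153 CPM (shEZH2) and 0.938 and 1.24 CPM (shSUZ12), against 5.58 and 6.03 CPM in control. IGFBP3, which binds insulin-like growth factors, had 16.1 and 20.1 CPM (shEZH2) and 23.9 and 21.5 CPM (shSUZ12), against 64.8 and 56.5 CPM in control, and PAPPA, a protease that cleaves such binding proteins, fell as well (-1.56). BDNF, a neurotrophin, fell (-1.11). The neuregulin NRG2 rose from a low level, with 2.12 and 1.69 CPM (shEZH2) and 2.06 and 1.76 CPM (shSUZ12), against 0.405 and 0.095 CPM in control. Of 18 VEGF ligands, receptors and angiogenic factors 1 rose in common, ANGPTL2 (0.99), and 2 fell, the VEGF receptor KDR with 2.7 and 0.97 CPM (shEZH2) and 1.34 and 1.33 CPM (shSUZ12), against 8.87 and 6.6 CPM in control and the co-receptor NRP2 (-0.83). Taking the 9 calls of these lists, 9 and 9 stayed called on leaving out shEZH2 replicate 1 or 2, 2 and 2 on leaving out shSUZ12 replicate 1 or 2, and 0 and 0 on leaving out control replicate 1 or 2.

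Developmental regulators, which include many textbook PRC2 targets, changed in both directions and few passed. Of 70 tested transcription factors outside the HOX clusters 4 rose in common and 4 fell (median -0.05), against 1.49% and 2.11% of all tested genes. In all 4 knockout libraries 10 of the 70 lay above both controls and 12 below, near the 12.9% and 15.2% of all tested genes. FOXR2 and LDB2 are given above. LMO2, a LIM-only factor of blood development, had 2.51 and 3.78 CPM (shEZH2) and 3.17 and 2.53 CPM (shSUZ12), against 0.09 and 0.57 CPM in control. HEY1, a Notch target, rose by 1.44 on the log2 scale. NKX2-1, a factor of lung and thyroid, had 0 counts in all 4 knockout libraries, against 2.03 and 1.9 CPM in control, at least 54.8-fold lower. IRX2, an Iroquois homeobox factor, was likewise at 0, at least 47.7-fold lower. Neither was detected in any knockout library at this depth. SOX2 had 0.193 and 0.153 CPM (shEZH2) and 0.357 and 0.191 CPM (shSUZ12), against 1.04 and 0.997 CPM in control, and it lies on the lower segment of chromosome 3. Of 11 tested HOX genes 0 were called by edgeR, limma-voom or DESeq2, with 3 at an unadjusted p under 0.05 in edgeR. Of 45 axon guidance and neural adhesion genes 3 rose, NEO1, the semaphorin SEMA4B (0.94) and the ephrin receptor EPHA7 (3.57), and 3 fell, the related receptor EPHA4 (-1.24), L1CAM and TENM1. L1CAM, a neural cell adhesion molecule, had 5.49 and 12.2 CPM (shEZH2) and 95.2 and 80.03 CPM (shSUZ12), against 135 and 116 CPM in control, so its fall was far larger in the shEZH2 line (adjusted p = 0.0154 between lines). TENM1, a teneurin, had 0.723 and 0.358 CPM (shEZH2) and 4.83 and 3.43 CPM (shSUZ12), against 6.57 and 8.31 CPM in control, with the same order of lines. Of 36 ion channel and transmitter receptor genes, the sodium channel SCN2A (2.49) and the potassium channel KCNQ3 (1.51) rose and the acetylcholine receptor subunit CHRNB1 (-0.86) fell. SEMA4B and NEO1 lie on the higher segment of chromosome 15 (median 0.57) and MUC4 on the lower segment of chromosome 3, whose part in these values was not tested. MAGEH1 was the single common change among 9 MAGE genes (1.30) and MUC4 among 5 mucins, with 0 and 0.0511 CPM (shEZH2) and 0 and 0.0477 CPM (shSUZ12), against 0.855 and 2.04 CPM in control. Of the 19 calls in these 6 lists, 19 and 19 stayed called on leaving out shEZH2 replicate 1 or 2, 8 and 7 on leaving out shSUZ12 replicate 1 or 2, and 2 and 2 on leaving out control replicate 1 or 2.

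Interferon-stimulated genes gave a small set of falls. Of 50 tested members 1 rose in common and 3 fell (median -0.10), against 1.49% and 2.11% of all tested genes. In all 4 knockout libraries 3 of the 50 lay above both controls and 13 below (all tested genes, 12.9% and 15.2%). IFIT2, an RNA-binding effector, had 19.95 and 23.4 CPM (shEZH2) and 23.1 and 23.7 CPM (shSUZ12), against 48.4 and 44.97 CPM in control, IFIT3 had 32.5 and 43.4 CPM (shEZH2) and 48.97 and 47.1 CPM (shSUZ12), against 91.5 and 81.1 CPM in control, and IFIT1 had a log2 fold change of -0.97. The 3 neighbours on chromosome 10 thus fell by similar amounts, and IFI44L rose (log2 fold change 1.29 ± 0.26 (SE), edgeR adjusted p = 0.0416). Of 28 antigen presentation genes 0 were called by edgeR or limma-voom, 3 by DESeq2 and 5 at an unadjusted p under 0.05. Of the 5 edgeR calls in these lists, 5 and 5 stayed called on leaving out shEZH2 replicate 1 or 2, 0 and 0 on leaving out shSUZ12 replicate 1 or 2, and 0 and 0 on leaving out control replicate 1 or 2.

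Metabolic genes gave few common changes. Of all tested genes 1.49% rose in common and 2.11% fell. PHGDH, the first enzyme of serine synthesis, had 27.03 and 34.99 CPM (shEZH2) and 33.8 and 31.6 CPM (shSUZ12), against 8.51 and 7.88 CPM in control, the same in both lines (log2 fold change 1.96 ± 0.20 (SE), edgeR adjusted p = 0.00441). It was 1 of 2 common rises among 45 serine, one-carbon and amino acid stress genes, the other being CREB3L3, a membrane-bound CREB family factor (4.03 in the shEZH2 line and 0.43 in the shSUZ12 line), and 0 fell. Of 49 hypoxia and glycolysis genes 3 rose, the aldolase ALDOC with 13.9 and 15.2 CPM (shEZH2) and 20.5 and 9.91 CPM (shSUZ12), against 2.79 and 5.03 CPM in control, the prolyl hydroxylase EGLN3 (1.09) and FAM162A (1.11), and 1 fell, EPAS1, which encodes the hypoxia factor HIF-2 alpha (log2 fold change -1.11 ± 0.20 (SE), edgeR adjusted p = 0.0313). UQCRH, a complex III subunit, was the single common rise among 72 respiratory chain genes (log2 fold change 1.08 ± 0.19 (SE), edgeR adjusted p = 0.0297). The medians of some large lists went apart between the lines. Cytosolic ribosomal protein genes had a median of 0.74 in the shEZH2 line and -0.06 in the shSUZ12 line, with library medians of 0.34 and 1.11 in the shEZH2 replicates and -0.05 and -0.06 in the shSUZ12 replicates. Respiratory chain genes had 0.55 in the shEZH2 line and -0.03 in the shSUZ12 line, with library medians of 0.10 and 0.90 in the shEZH2 replicates. Cholesterol and fatty acid synthesis genes had -0.50 in the shEZH2 line and 0.33 in the shSUZ12 line. Their library medians were -0.58 and -0.56 (shEZH2) and 0.57 and 0.12 (shSUZ12), against -0.30 and 0.30 in control, so the controls differed as well. Of 79 ribosomal genes edgeR and limma-voom called 0, DESeq2 called 3 and 8 had an unadjusted p under 0.05. Of 40 cholesterol genes edgeR, limma-voom and DESeq2 called 0 and 1 had an unadjusted p under 0.05. Of the 7 calls among serine, hypoxia and respiratory genes, 6 and 6 stayed called on leaving out shEZH2 replicate 1 or 2, 1 and 2 on leaving out shSUZ12 replicate 1 or 2, and 0 and 0 on leaving out control replicate 1 or 2.

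Genes of the cell cycle, DNA repair and cell death gave few common changes. CCND2, cyclin D2, was the single common change among 66 cell cycle genes, with 5.2 and 4.95 CPM (shEZH2) and 19.2 and 14.4 CPM (shSUZ12), against 4.55 and 3.23 CPM in control, a rise carried by the shSUZ12 line (adjusted p = 0.0346 between lines). The median of the cell cycle list was -0.13, with 15 of the 66 below both controls in all 4 knockout libraries against 2 above (all tested genes, 15.2% and 12.9%). Of 52 base excision, excision and end-joining repair genes edgeR and limma-voom called 0, DESeq2 3, and 5 had an unadjusted p under 0.05 (median -0.01). Of 52 homologous recombination and replication fork genes edgeR called 0, limma-voom 1, DESeq2 2, and 8 had an unadjusted p under 0.05 (median -0.05). Of 32 CDK inhibitors and p53 targets edgeR called 0, limma-voom 1, DESeq2 2, and 6 had an unadjusted p under 0.05; MDA-MB-231 carries mutant p53. In all 4 knockout libraries 12 of the 52 recombination genes lay below both controls and 6 above (all tested genes, 15.2% and 12.9%). BIRC2 was the single common change among 32 apoptosis genes, of which 7 lay below and 1 above (all tested genes, 15.2% and 12.9%). How many cell cycle and recombination genes were called depended strongly on the libraries kept, as it did over all tested genes.

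Among the complexes targeted, PARP1 was the single common change of 20 PARP family and ADP-ribose turnover genes, and EED of 13 PRC2 subunits. EED had 53.3 and 53.5 CPM (shEZH2) and 46.4 and 48.8 CPM (shSUZ12), against 86.5 and 78.1 CPM in control, lower in all 4 knockout libraries (log2 fold change -0.71 ± 0.15 (SE), edgeR adjusted p = 0.0442). It lies on the lower segment of chromosome 11 (median -0.57), and that segment's part in the EED value was not tested. The call of EED was lost without any 1 control or shSUZ12 library, with upper-quartile scaling (adjusted p = 0.0574) and with the 4 knockout libraries as 1 group (adjusted p = 0.142). EED, EZH2 and PARP1 were the 3 calls of these lists, of which 3 and 3 stayed called on leaving out shEZH2 replicate 1 or 2, 1 and 1 on leaving out shSUZ12 replicate 1 or 2, and 1 and 1 on leaving out control replicate 1 or 2.

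**Figure D4:**
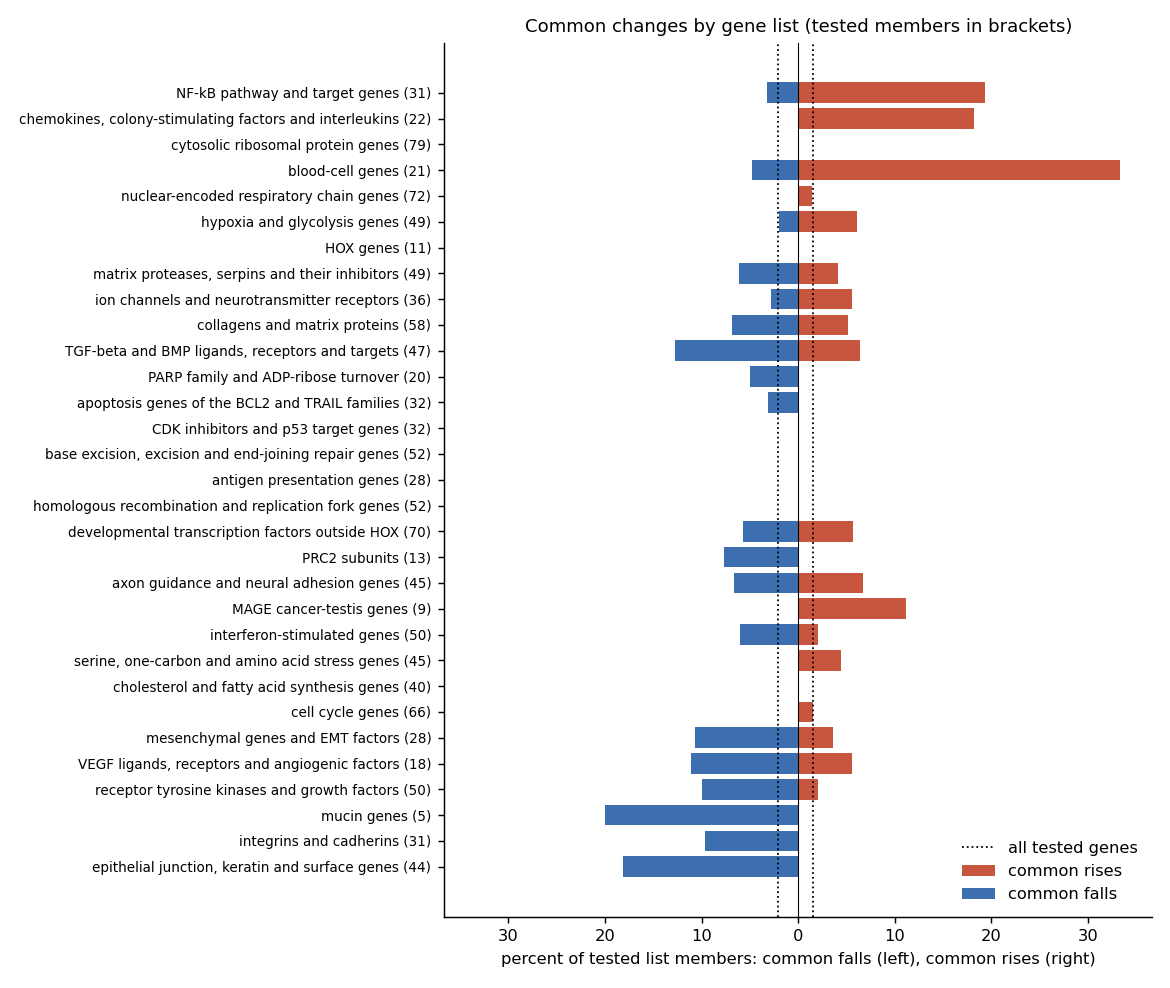
Percent of the tested members of each gene list that rose in common (right) or fell in common (left), ordered by the list's median log2 fold change, with dotted lines at the 1.49% and 2.11% of all tested genes. Blood-cell, NF-kB and chemokine genes have the longest bars to the right; epithelial and mucin genes, of which only 5 mucins were tested, have the longest to the left.

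The common changes with the highest CPM were of moderate size. Among the rises, EIF3I, a translation initiation subunit, had 769 and 928 CPM (shEZH2) and 417 and 408 CPM (shSUZ12), against 366 and 326 CPM in control, and FTSJ3, a ribosome biogenesis factor, had 475 and 479 CPM (shEZH2) and 226 and 232 CPM (shSUZ12), against 198 and 164 CPM in control. Both rose mainly in the shEZH2 line (adjusted p = 0.0419 and 0.0348 between lines), as did RNR1, a ribosomal RNA symbol with no position here (1.74 and 0.47), whose copies make its count uncertain. Among the falls, the proteasome subunit PSMD2 had 564 and 525 CPM (shEZH2) and 630.3 and 639.7 CPM (shSUZ12), against 1087 and 889 CPM in control and lies on the lower segment of chromosome 3. PTTG1IP, a securin-binding protein, had 517 and 569 CPM (shEZH2) and 490.2 and 515 CPM (shSUZ12), against 1199 and 999 CPM in control, and the caveolae scaffold PTRF had 399.5 and 458 CPM (shEZH2) and 528 and 516 CPM (shSUZ12), against 820.0 and 714 CPM in control. These were lower in each knockout library by similar amounts. Of the 10 calls with the highest CPM, 9 and 9 stayed called on leaving out shEZH2 replicate 1 or 2, 0 and 0 on leaving out shSUZ12 replicate 1 or 2, and 0 and 0 on leaving out control replicate 1 or 2.

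Some neighbouring genes shifted together in all 4 knockout libraries, a pattern chosen after values were seen and given with no test. When the tested genes were taken along each chromosome in blocks of about 50, 11 of 267 blocks had a median at least 0.25 away from control on the log2 scale, to the same side, in every knockout library. They joined into 4 segments (GRCh38). On chr15:59372693-101976543, 238 tested genes had a median log2 fold change of 0.57, or 1.48-fold. Library medians there were 0.59 and 0.60 (shEZH2) and 0.54 and 0.52 (shSUZ12), against 0.02 and -0.02 in control. All 4 knockout libraries lay above both controls in 141 of these genes (59.2%, against 12.9% of all tested genes). In common 25 rose (10.5%, against 1.49% of all tested genes) and 0 fell. On chr11:86244544-117204782, 103 genes had a median of -0.57, with 61 below in all 4 libraries (59.2%, against 15.2% of all tested genes). This segment held 16 common falls (15.5%, against 2.11% of all tested genes) and 2 common rises. Blocks beside it at chr11:74000281-86069882, chr11:117204337-123741675 and chr11:124115362-134378341 were also lower in all 4 knockout libraries but missed the cut (medians -0.26, -0.19 and -0.22). MCAM lies in the middle one of these and ADAMTS15 in the last, and the part of these blocks in their values was not tested. On chr3:179652755-198222513, 103 genes had a median of -0.53, with 65 below (63.1%), 15 common falls (14.6%) and 1 common rise. On chr4:53285-21948799, 102 genes had a median of 0.36, with 47 above (46.1%), 5 common rises (4.90%) and 0 falls.

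The segments held 546 tested genes with 33 of the common rises and 31 of the common falls. The other 179 rises and 269 falls lay among the 12823 positioned genes outside them or among tested genes with no position. With their genes left out of the fit, an alternative added after seeing the data, 416 genes were called and 408 of them were common. DNA copy number was not measured in these libraries, and its part in the shifted segments was not tested. Of the calls on the segment of chromosome 15, 25 and 25 stayed called on leaving out shEZH2 replicate 1 or 2, 2 and 2 on leaving out shSUZ12 replicate 1 or 2, and 0 and 0 on leaving out control replicate 1 or 2. For chromosome 11, 18 and 18 stayed called on leaving out shEZH2 replicate 1 or 2, 3 and 4 on leaving out shSUZ12 replicate 1 or 2, and 0 and 0 on leaving out control replicate 1 or 2. For chromosome 3, 16 and 16 stayed called on leaving out shEZH2 replicate 1 or 2, 1 and 2 on leaving out shSUZ12 replicate 1 or 2, and 0 and 0 on leaving out control replicate 1 or 2. For chromosome 4, 5 and 5 stayed called on leaving out shEZH2 replicate 1 or 2, 1 and 1 on leaving out shSUZ12 replicate 1 or 2, and 0 and 0 on leaving out control replicate 1 or 2. The segment medians themselves kept their direction without any 1 library. The segments were chosen for a shift to the same side in every knockout library, so this was fixed in advance and is no support.

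**Figure D5:**
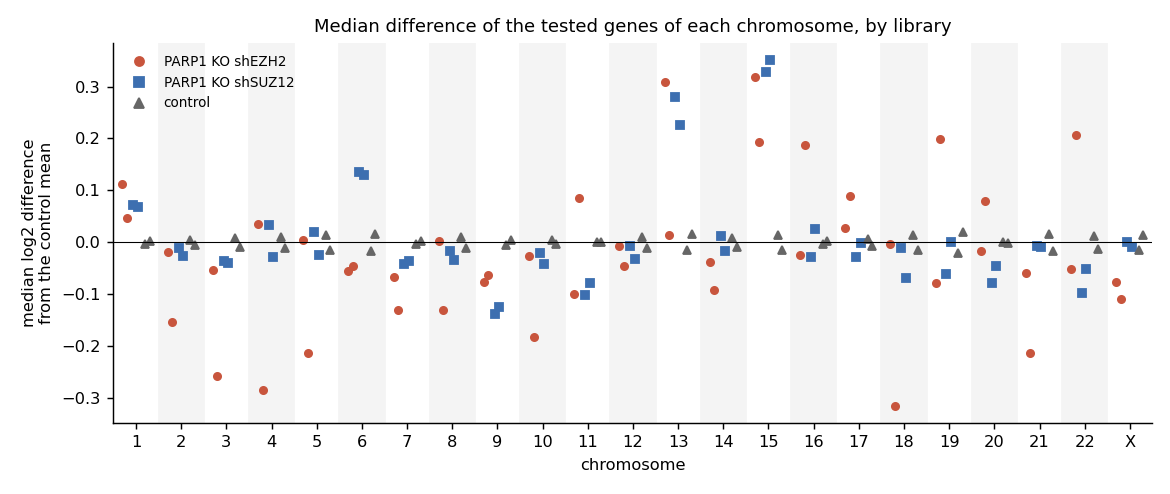
Median log2 difference from the mean of the controls over the tested genes of each chromosome, in each library. Chromosome 15 is above control in all 4 knockout libraries, chromosome 13 in 3 with the fourth near 0, and shEZH2 replicate 2 spreads more than the other libraries on many chromosomes.

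The lines also went opposite ways. In 1079 tested genes (7.6%) both libraries of 1 line lay above both controls and both of the other line below, 553 with the shEZH2 line above and 526 with the shSUZ12 line above, and 103 of the 1079 were called between the lines. MUC5AC, a gel-forming airway and gastric mucin, had 114 and 79.7 CPM (shEZH2) and 2.37 and 2.48 CPM (shSUZ12), against 12.9 and 23.1 CPM in control. CEBPA, a transcription factor of myeloid and fat cells, had 9.59 and 12.8 CPM (shEZH2) and 0.179 and 0.0953 CPM (shSUZ12), against 0.9 and 0.902 CPM in control. ST6GALNAC5, a sialyltransferase, went the other way, with 0.145 and 0.0511 CPM (shEZH2) and 3.48 and 3.34 CPM (shSUZ12), against 2.43 and 1.52 CPM in control. In the mean of both lines the opposite changes cancelled only in part. Its log2 fold change was -0.23 ± 0.27 (SE) for MUC5AC, 0.49 ± 0.40 for CEBPA and -1.73 ± 0.40 for ST6GALNAC5, and none of these passed. EZH2 was the 1 gene opposite in the lines that was called in the mean.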

How the data were processed

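RNA of 6 MDA-MB-231 libraries (3 groups of 2) was purified on columns and prepared with a stranded poly(A) kit, per the labels' protocols. The values deposited by the authors are unnormalized counts of reads for each gene symbol and library. GRCh38, STAR, GenomeStudio 2010.1 and R 3.2.5 are named, without roles, in the submitters' processing notes; the annotation and strand setting were not given in the sources used here, and antisense partners may share reads. The 4 entries that name no gene (16.5 to 21.0% of counts) were left out. Of 29744 genes, 14192 passed edgeR's filterByExpr by group. R 4.3.3 with edgeR 4.0.16 fitted all 3 groups in 1 robust quasi-likelihood model (3 residual degrees of freedom); the contrast was the mean of both knockout lines minus control, with Benjamini-Hochberg adjustment over all tested genes, and the lines were also compared with each other. Standard errors (SE) were worked out from each F statistic and log2 fold change. The distance between closest libraries is on log2 CPM with a prior count of 2. A gene at 0 in a whole group is given as a lower bound against 3 counts over that group; bounds and 95% counting intervals cover counting error only.

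The labels do not state separate cultures for the 2 libraries of a group; p-values therefore reflect the spread between libraries only, and that spread may be technical. For 1 gene, 4 libraries against 2, a two-sided exact permutation test cannot go below p = 0.133. The members, the 31 gene lists and the rule for named genes were chosen with earlier results of these data known. The rule names PARP1, EZH2 and SUZ12, then, among common changes with at least 5 CPM on the higher side, the 12 rises and 12 falls with the widest distance between closest libraries and the 5 of each with the highest CPM. It adds up to 2 rises and 2 falls of each list by log2 fold change and 6 genes opposite in the lines; other genes were chosen after their values were seen. Alternatives were other scalings, filters and tests (DESeq2 1.42.0, limma 3.58.1), a replicate block, removal of the trend with transcript length, and leaving out libraries. Replicates of every group differed by more than sampling noise (chi-square per degree of freedom 9.31 to 123). The edgeR steps were tested on simulated data. Positions are of GENCODE version 29, which 13369 tested genes matched, and promoter windows are of RefSeq.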

Additional observations from a re-analysis of the deposited data

Results flagged for a closer look

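Among the genes named here, these differed between the lines by the test of the difference itself (edgeR adjusted p under 0.05), so their mean hides unequal changes. Values are log2 differences, shSUZ12 minus shEZH2. Of genes that rose in common, GMFG (-3.95), CREB3L3 (-3.60), SNAI1 (-1.88), PLCH2 (-1.66), SMAD6 (-1.65), FTSJ3 (-1.06) and EIF3I (-1.04) were higher in the shEZH2 line. SPOCK1 (2.12) and CCND2 (1.72) were higher in the shSUZ12 line. Of genes that fell in common, NUP210 (3.02), TENM1 (2.91) and L1CAM (3.31) were lower in the shEZH2 line, and ITGB2 (-2.05) and INHBB (-2.02) in the shSUZ12 line. CEBPA (-6.28), MUC5AC (-5.32), MUC5B (-5.06), MAGEC2 (-4.99), MEGF6 (-4.85) and ST6GALNAC5 (5.03) were chosen as opposite in the lines, so their values are a description. EZH2 (1.86) was lower in the shEZH2 line. NLRP2 (-4.59) and AIF1L (-2.60), which lay below control in both lines, were lower in the shSUZ12 line, and CNN3 (1.22), on no common side, was lower in the shEZH2 line. Over all tested genes the test between lines kept 0 calls on leaving out either shSUZ12 library and 1 call on leaving out either control library.

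Outside the gene counts, reads placed at several sites made up 8.27 and 10.4% of all counts in the shEZH2 libraries and 7.96 and 7.87% in the shSUZ12 libraries, against 7.21 and 7.64% in control. All 4 knockout libraries were above both controls, and shEZH2 replicate 2 was the highest.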

How the results depend on the processing

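The count of genes called depends on which libraries are kept. Leaving out 1 library at a time, calls for the mean of both lines ran from 18 to 6357, common changes from 18 to 3907, calls between the lines from 0 to 7590, and genes on one side of both controls from 4625 to 6137. The low ends came without control replicate 1 for calls in the mean and common changes, and without an shSUZ12 library for calls between the lines and genes on one side. The high ends of the calls came without shEZH2 replicate 1, and that of genes on one side without control replicate 2. A rule over fewer libraries is easier to meet, so genes on one side exceeded the 3980 of the full set by construction. A group left with 1 library is assumed to vary like the others. Of 78 called named genes, 12 and 16 stayed called without control replicate 1 or 2. The 10 named genes AGMAT, AMPH, CDH11, CXCR4, FOXR2, HCLS1, INHBB, LSR, PARP1 and SERPINB2 were called in all 17 alternatives besides the 1.5-fold threshold. The called named genes kept their direction in every alternative that tested them. All of them except EZH2 had been chosen with every knockout library on the same side of both controls. Their direction was therefore largely fixed in advance and is no support.

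No low-count filter gave 781 calls for the mean and 718 between the lines. DESeq2 gave 998, 1304 and 949 common changes. Removing the trend with transcript length gave 1403, 1336 and 1319 common changes. The 4 knockout libraries as 1 group gave 124 calls, 124 of them common, and a test against a 1.5-fold change 165, 165 of them common. Asking for 2-fold between the closest libraries left 228 genes on one side. Upper-quartile scaling moved the median of the chromosome 15 segment to 0.61. The replicate numbers are not said to pair libraries; with a replicate block, calls were 640 for the mean and 368 between the lines, the call of EED was lost (adjusted p = 0.0579), and the correlations of same-numbered deviations were 0.12, 0.093 and 0.16. The cause of these shifts was not tested. Genes under 3 counts, 0.134 to 0.153 CPM, are below what this depth resolves.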

Other observations

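Chromosome X held 21 of the common rises, 4.46% of its 471 tested genes, against 1.49% of all tested genes. Of the 27 common rises with at most 3 counts in both controls together, 9 lie on X, FOXR2 among them, and 10 of the 45 tested genes so low in control lie there. All 4 knockout libraries lay above both controls in 13.4% of its tested genes, near the 12.9% of all tested genes, and its median log2 fold change was -0.07. These counts were made after values were seen and carry no test.

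Genes that neighbour each other were lost together at 2 places. NKX2-1 and SFTA3 on chromosome 14 had 0 counts in all 4 knockout libraries, against 2.03 and 1.9 CPM and 0.855 and 1.42 CPM in control, at least 54.8-fold and 31.6-fold lower. IRX2 on chromosome 5 was also at 0, and IRX1 beside it had 0.0964 and 0.0511 CPM (shEZH2) and 0.268 and 0.334 CPM (shSUZ12), against 3.15 and 4.13 CPM in control. Chromosome 13 had a median log2 fold change of 0.21. Of its 244 tested genes 4 rose in common (1.64%, near the 1.49% of all tested genes) and 0 fell (all tested genes, 2.11%). Its library medians were 0.31 and 0.01 (shEZH2) and 0.28 and 0.23 (shSUZ12), against -0.02 and 0.02 in control, so the median of shEZH2 replicate 2 was near control, though in the block at chr13:45333471-61415522 it stood at 0.24 and the other knockout libraries at 0.36 to 0.45.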
